A study of Danio rerio with 8 samples.

Results

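Described here are 12 clone-named zebrafish genes whose reads were more abundant in strongly fluorescent cells (P2) than in weakly fluorescent ones (P1). The sample titles name both as osteoblasts, and the paper treats P1 as osteoblast-like cells that may be precursors of P2. The 12 genes were chosen by a rule on the normalized read counts, which are the reads of each gene divided by 1 scaling factor per library. The symbol had to start with si:, zgc:, CABZ, CR, CU, BX, AL, FP or FO, the mean over the 3 P2 libraries had to be at least 50, and the lowest P2 value had to be more than 2 times the highest of the 5 P1 values. Of 32520 gene rows, 12049 carried such a name, 352 of these reached the mean, and 12 met both limits (3.41% of the 352). The P2 and P1 values of these genes are therefore a description of what the rule selected and are given with no test.

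The cells came from larvae of the line Tg(sp7:sp7-GFP), also named ulg071 Tg, in which a GFP reporter cDNA sits in the endogenous sp7 gene. The larvae were offspring of a heterozygous transgenic parent outcrossed to a wild-type parent (the study's wild-type fish were of the AB strain) and were 4 days old, and about 100 to 150 fluorescent larvae were pooled for a sort of 30000 to 50000 cells. P2 (replicates 1, 2 and 4) and P1 (replicates 1, 2, 3, 5 and 6) carry the same reporter and differ in the intensity of its fluorescence, so the cells were separated by the output of the sp7 locus itself. Nothing in the labels says that replicates of a population came from separate clutches, so p-values measure the spread between these libraries, which may in part be technical.

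Sp7 (osterix) is a zinc finger transcription factor required for osteoblast differentiation, and cells that express it strongly are usually bone-forming cells that make collagen and mineralized matrix. Names such as si:ch211, si:dkey, CABZ or CR are taken from the genomic clone or sequence contig on which a gene was predicted, and zgc: names come from a cDNA collection. Such a name says where the gene was found and nothing of its function, and no role can be read from most of these names.

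Reads in genes numbered 7510312 to 10811492 per library in P2 and 8528850 to 13034333 in P1. The gene sp7, which averaged a normalized count of 1009 ± 229 in P2 (SD, n = 3) and 57.7 ± 26.9 in P1 (SD, n = 5), carries the reporter that the sort used. In a principal component analysis of the 500 genes with the highest variance, along component 1 (61.1% of that variance), P2 replicates 1 and 4 lay at 68.7 and 67.8, P2 replicate 2 at 21.6 and the P1 libraries between -41.9 and -23.0. Summed over 10 osteoblast genes, the normalized counts spanned 66074 to 93222 in P2 and 7176 to 10124 in P1. Of the 10, 9 passed the test as higher in P2, against 7.57% of all genes tested. This list holds sp7 and other genes known to differ in these libraries, so its direction is no independent evidence. The sums of 6 macrophage and 6 endothelial genes lay lower in every P2 library (20.7 to 77.6 and 138 to 317) than in any P1 library (192 to 241 and 368 to 620). The keratinocyte sums were 326 to 1758 in P2 and 1703 to 18408 in P1, and the neuron sums 44.1 to 541 in P2 and 301 to 1517 in P1, so that P2 replicate 2 reached into the P1 range for both. In limma, the macrophage list had 4 of 6 genes lower, the endothelial list 3 of 6 and the keratinocyte list 3 of 6. The neuron list had 4 of 6 lower and the erythroid list 1 of 5 tested, against 7.05% of all genes tested. No gene of these lists was higher, and 0 genes of the muscle, neutrophil or pigment lists passed in limma. For the macrophage, endothelial, keratinocyte, neuron and erythroid lists, edgeR called 4, 1, 0, 2 and 1 genes lower. DESeq2 called 4, 2, 6, 5 and 2 of them lower. At an unadjusted p under 0.05, 2 of 6 muscle, 2 of 4 neutrophil and 0 of 3 pigment genes were lower, and edgeR and DESeq2 each called 1 neutrophil gene lower and 0 genes of the other 2 lists. Of 8 chondrocyte genes, 2 were higher and 1 lower. A lower number of a cell type and less RNA per cell cannot be told apart in such bulk libraries. The part of other cell types in the values below was not tested.

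Of the 12 genes, 3 were far apart between the populations, with a lowest P2 value more than 10 times the highest P1 value, and for the other 9 the ratio was under 4. The normalized read count of si:ch211-106n13.3 (ENSDARG00000052633) was 1515, 1008 and 1655 in P2 replicates 1, 2 and 4, against 89.4, 26.7, 12.4, 15.8 and 29.6 in P1 replicates 1, 2, 3, 5 and 6. P2 averaged 1393 ± 340 (SD, n = 3) and P1 34.8 ± 31.4 (SD, n = 5), a 40.0-fold ratio of the means, and P1 replicate 1 stood well above the other P1 libraries. The fitted log2 fold change, from limma on log2(normalized read count + 1), was 5.60 (SE 0.51).

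The gene si:dkey-32e6.6 (ENSDARG00000070857) had the widest separation of the 12. Its normalized counts were 1247, 1473 and 706 in the P2 libraries, against 10.6, 0.556, 1.99, 5.10 and 13.3 in the P1 libraries. Every P2 library exceeded every P1 library by at least 53.0 times, and the means differed 181-fold. The lowest P1 value stood for 3 reads. Its log2 fold change was 7.65 (SE 0.64), a value that the added 1 makes smaller for genes this low in P1.

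The row zgc:92162 (ENSDARG00000099344) carries the newer symbol pla2g10 in the gene name table, the zebrafish member named after group X secreted phospholipase A2, an enzyme family that releases fatty acids from membrane lipids in mammals. Its normalized counts were 273, 392 and 205 in P2, against 14.2, 1.11, 8.41, 5.91 and 1.95 in P1. The means were 290 ± 94.9 in P2 (SD, n = 3) and 6.32 ± 5.31 in P1 (SD, n = 5), a 45.9-fold ratio, with a log2 fold change of 5.62 (SE 0.59).

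**Figure D1:**
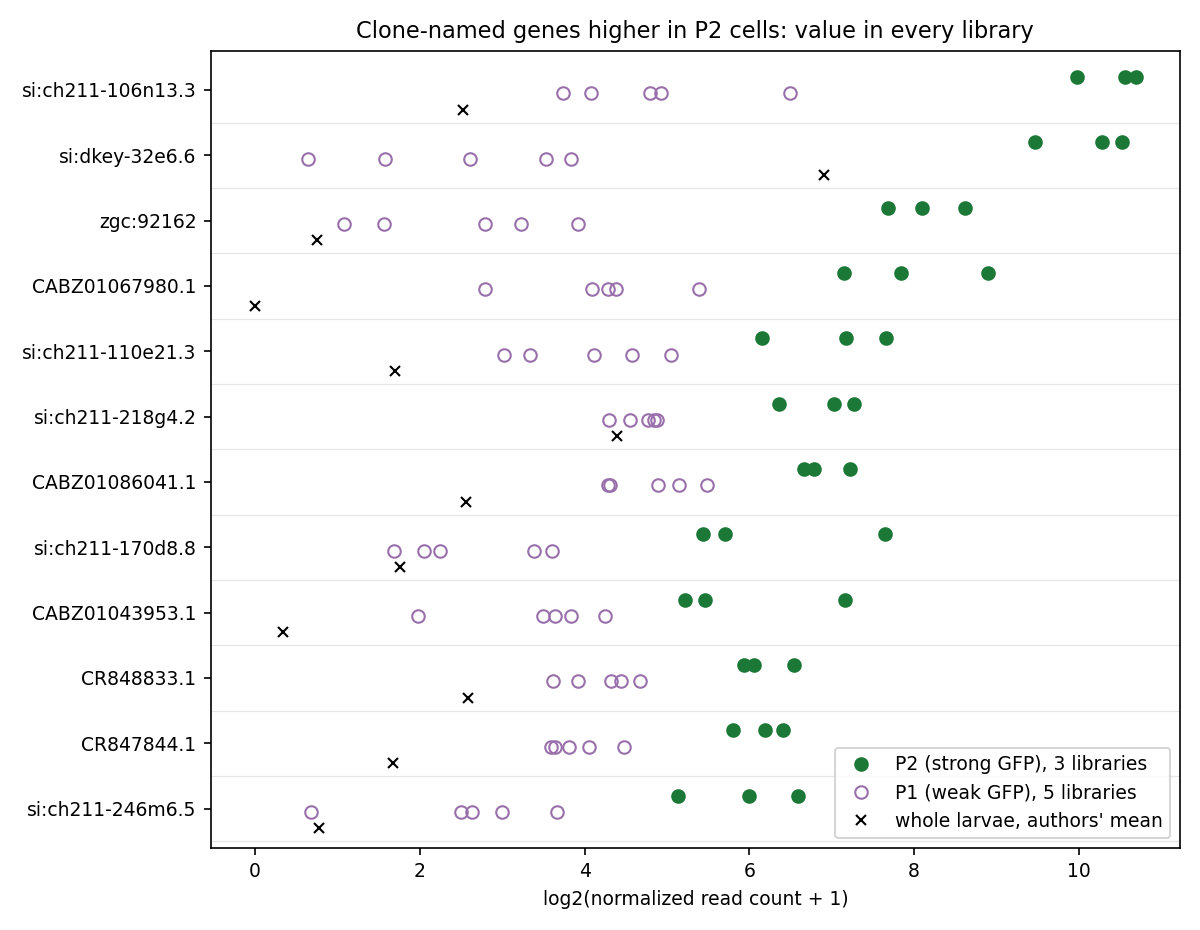
Normalized read counts of the 12 clone-named genes, on the horizontal axis as log2(normalized read count + 1), with 1 line per gene ordered by the P2 mean. Filled circles are the 3 P2 libraries, open circles the 5 P1 libraries and crosses the authors' whole-larva mean. No P2 circle overlaps a P1 circle, which the rule required, and the cross of si:dkey-32e6.6 at 119 normalized counts lies between both populations.

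The next 4 genes by P2 mean were separated by smaller ratios. CABZ01067980.1 (ENSDARG00000117320) had normalized counts of 228, 141 and 475 in P2, against 16.0, 40.8, 19.9, 5.91 and 18.5 in P1. Its lowest P2 value was 3.46 times its highest P1 value, the P2 value of replicate 4 was far above the other P2 values, and the log2 fold change was 3.77 (SE 0.53). The gene si:ch211-110e21.3 (ENSDARG00000089338) had 70.2, 144 and 202 in P2, against 23.0, 32.1, 9.08, 16.4 and 7.15 in P1, with P2 replicate 1 close to the limit at a ratio of 2.19. Its log2 fold change was 2.98 (SE 0.50).

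The row si:ch211-218g4.2 (ENSDARG00000078145) is now listed as arhgap46b, a symbol of a class of GTPase-activating proteins, which switch off small GTPases. Its normalized counts were 130, 81.5 and 153 in P2, against 28.4, 18.7, 27.7, 26.3 and 22.4 in P1. Its P1 values were the most even of the 12 genes, the highest being 1.52 times the lowest, and its log2 fold change was 2.22 (SE 0.32). CABZ01086041.1 (ENSDARG00000019442) had 149, 101 and 109 in P2, against 28.7, 43.7, 34.5, 18.5 and 18.9 in P1, the most even P2 values of the 12, with a highest P2 value 1.48 times the lowest and a log2 fold change of 2.07 (SE 0.36).

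The remaining 5 genes had P2 means under 100. The gene si:ch211-170d8.8 (ENSDARG00000090945) had 51.2, 200 and 42.4 normalized counts in P2, against 11.2, 3.15, 2.21, 3.76 and 9.43 in P1, and P2 replicate 2 lay far above the other P2 libraries. Its log2 fold change was 3.67 (SE 0.60). Without P2 replicate 2 this gene no longer met the limits. The muscle gene sum was 21154 normalized counts in P2 replicate 2, against 193 and 179 in P2 replicates 1 and 4. In P1 it was 17278 and 23846 in replicates 1 and 6, which held the gene's highest P1 values, 11.2 and 9.43, and 1191 to 2136 in the other 3, where the gene was at 2.21 to 3.76. The part of muscle RNA in these values was not tested. CABZ01043953.1 (ENSDARG00000112073) had 43.1, 36.3 and 142 in P2, against 10.3, 18.0, 11.5, 2.95 and 13.3 in P1, and stood just inside the ratio limit at 2.02, with a log2 fold change of 2.51 (SE 0.57).

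CR848833.1 (ENSDARG00000117428) had normalized counts of 60.4, 65.8 and 92.5 in P2, against 24.5, 14.1, 11.3, 19.1 and 20.8 in P1. CR847844.1 (ENSDARG00000087245) had 55.0, 71.9 and 83.7 in P2, against 12.99, 21.3, 11.5, 15.6 and 11.1 in P1. Both were even within each population, and their log2 fold changes were 1.99 (SE 0.36) and 2.22 (SE 0.36).

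The symbol si:ch211-246m6.5 stands on 2 rows of the table, and 1 of them met the limits. That row (ENSDARG00000103750), named si:ch73-338d8.1 in the gene name table, had 95.4, 34.1 and 62.9 normalized counts in P2, against 0.604, 11.7, 4.65, 6.98 and 5.202 in P1, with a log2 fold change of 3.41 (SE 0.62). Its lowest P1 value stood for 2 reads. The other row (ENSDARG00000011673) had 83.1, 42.7 and 14.3 in P2, against 24.8, 21.9, 34.5, 27.9 and 15.6 in P1. In the second row both populations overlapped and the log2 fold change of 0.61 did not pass the test (limma, adjusted p = 0.426), so the shared symbol alone does not identify the gene. Whether reads are shared between both rows is not known. Their sequences were not compared, and the assignment of reads that match several rows is not stated.

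Several genes lay next to the limits. Just outside the ratio limit were CR376783.1 at 1.94, si:dkey-42i9.6 at 1.92 and zgc:113149 at 1.84, and just inside it, after CABZ01043953.1 and si:ch211-110e21.3, was CABZ01086041.1 at 2.30. The gene si:dkey-42i9.6 had 739, 879 and 743 normalized counts in P2, against 275, 385, 189, 150 and 235 in P1, a P2 mean above that of 10 of the 12 genes. Just under the mean of 50 were BX537310.2 at 49.8, CABZ01067979.1 at 46.5 and CR847844.2 at 41.2, and just over it were si:ch211-246m6.5 at 64.1, CR847844.1 at 70.2 and CR848833.1 at 72.9. Without P2 replicate 2 the limits were met by 35 clone-named genes, and without P1 replicate 2 by 21. Genes with other names were not counted in this way, so nothing particular to clone-named genes is read from the rise. Over all genes, limma calls also rose, from 2700 to 3992 without P2 replicate 2 and to 2977 without P1 replicate 2.

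**Figure D2:**
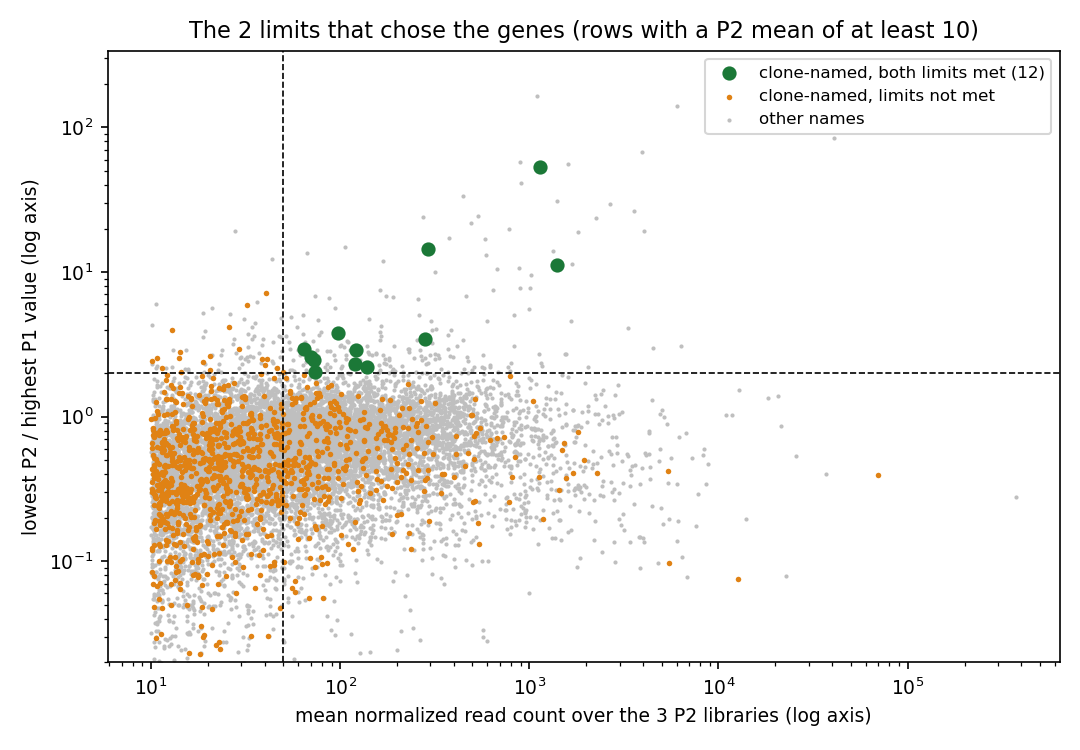
Mean normalized read count over the 3 P2 libraries (horizontal, log axis) and the ratio of the lowest P2 to the highest P1 value (vertical, log axis, drawn from 0.02) for genes with a P2 mean of at least 10 and a ratio above 0. Dashed lines mark the limits of 50 and 2. Of the 12 clone-named genes (green), 3 lie above a ratio of 10 and 9 lie under a ratio of 4.

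The rule was also counted over genes with other names. Both limits were met by 12 of 352 clone-named rows with a P2 mean of at least 50 (3.41%) and by 191 of 5421 rows with other names (3.52%). In the opposite direction, with a P1 mean of at least 50 and a lowest P1 value over 2 times the highest P2 value, the counts were 14 of 370 clone-named rows (3.78%) and 115 of 4946 others (2.33%). Over all genes, limma tested 18475, those with at least 10 reads in at least 3 libraries, and called 1398 of them higher in P2 (7.57%) and 1302 lower (7.05%) at an adjusted p under 0.05 (Benjamini-Hochberg). Higher genes made up 51.8% of these 2700 calls, and 38.4% under median-of-ratios scaling and 40.0% under TMM scaling. The number of calls was 876 without P2 replicate 1, 1115 without P2 replicate 4, 1682 without P1 replicate 3 and 1457 without P1 replicate 5. It was higher, at 3992, without P2 replicate 2, and 2977 without P1 replicate 2. All 12 genes were tested and called higher, a count from which nothing is read because the rule used the same contrast. At the median, the fitted log2 fold change reached 3.20 over the 12 genes, 2.80 over the 191 other genes inside the same limits and 0.00 over all genes tested.

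By comparison with named bone genes, 20 of a list of 42 (among them sp7, collagens and matrix proteins of bone) met the same limits. Of the 40 tested, 26 were higher in P2 and 1, scpp5, was lower, with a median log2 fold change of 2.20. The list holds genes known to differ in these libraries and is no independent evidence of its direction. The collagen gene col10a1a, which osteoblasts express in fish, averaged 40777 ± 9809 normalized counts in P2 (SD, n = 3) and 199 ± 119 in P1 (SD, n = 5). Its log2 fold change of 7.82 (SE 0.43) was near that of si:dkey-32e6.6 at 7.65 (SE 0.64), a comparison of differences and not of levels, since counts are not divided by gene length.

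The 12 genes had no common order among the P2 libraries. P2 replicate 4 was highest for 7 of them (58.3%), near the 55.5% of the 191 other genes inside the limits, against 34.1% of all genes tested. Replicate 2 was highest for 3 (25.0%, against 18.3% and 39.0%) and replicate 1 for 2 (16.7%, against 26.2% and 26.9%). P2 replicate 2 was lowest for 6 of the 12 (50%), against 64.4% of the 191 other genes inside the limits and 35.0% of all genes tested. The 3 genes highest in replicate 2, si:dkey-32e6.6, zgc:92162 and si:ch211-170d8.8, were also the 3 lowest in replicate 4, opposite to the 7 that were highest there. P2 replicate 2 also held the highest P2 sums of the muscle, keratinocyte, neuron, pigment, neutrophil and erythroid lists, and its osteoblast sum of 66074 was close to the 66379 of replicate 4. The genes col10a1a and col1a1a, with P2 means of 40777 and 20649, weighed most in the osteoblast sum. The part of other cell types in the 3 genes was not tested. In P1 replicates 1 and 6, where the muscle sums were highest, si:dkey-32e6.6 also had its highest P1 values, 10.6 and 13.3, against 0.556 to 5.10 in the other 3, while zgc:92162 was at 14.2 and 1.95, against 1.11 to 8.41 in the other 3. The highest P2 value was 2.00 times the lowest at the median over the 12 genes, against 1.86 over the 191 others. It was 2.46 over all genes tested that had reads in every P2 library. These had no limit on the P2 mean, so genes with few reads are among them.

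**Figure D3:**
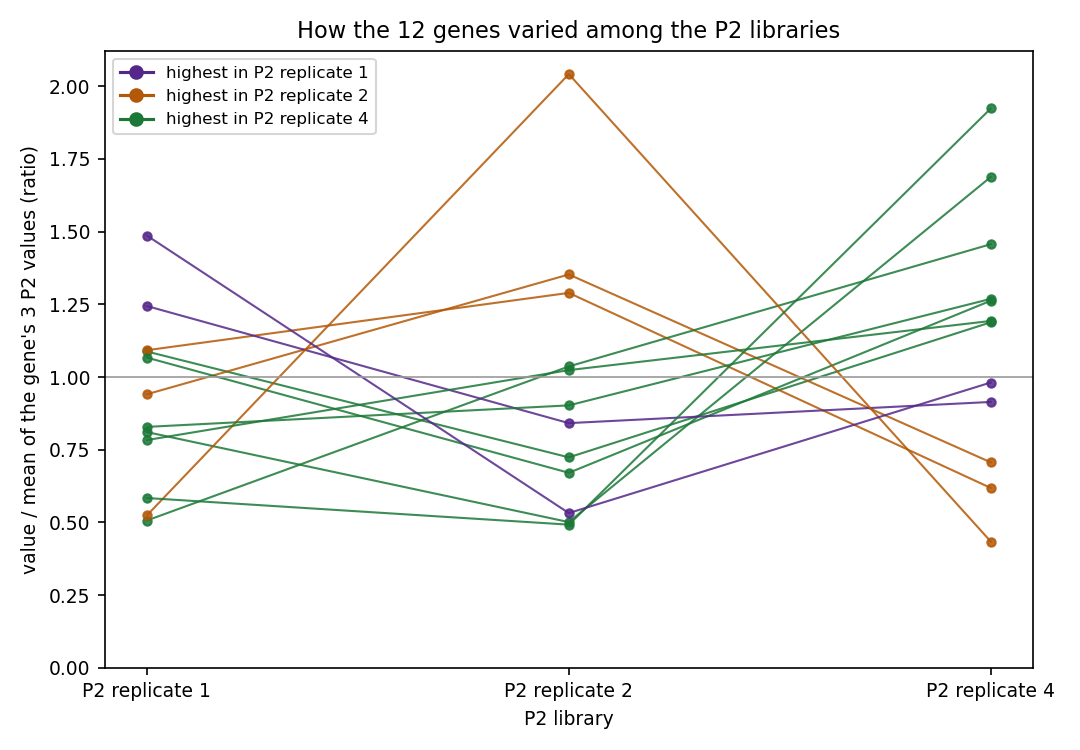
Each gene's value in P2 replicates 1, 2 and 4, divided by the mean of its 3 P2 values (vertical axis, ratio). A line joins the values of 1 gene and its colour names the library where that gene was highest. The 3 genes highest in replicate 2 have their lowest value in replicate 4. Of the 12 genes, 7 peak in replicate 4 (58.3%, against 55.5% of the 191 other genes inside the limits).

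A mean over whole larvae from another project is part of the deposited comparison and was not used by the rule. It is the authors' mean, taken here without a spread, and tissue, project and library preparation cannot be told apart in it. It lay below every P2 value for 12 of the 12 genes, against 92.7% of the 191 other genes inside the limits and 66.9% of all genes tested with a P2 mean of at least 50. It also lay below every P1 value for 8 of the 12 (66.7%), against 66.5% and 60.7%. The whole-larva mean was 0.00 normalized counts for CABZ01067980.1, 0.26 for CABZ01043953.1, 0.68 for zgc:92162, 0.71 for si:ch211-246m6.5 and 4.73 for si:ch211-106n13.3. For si:dkey-32e6.6 it was 119, above every P1 value and below every P2 value, the only such case among the 12. For si:ch211-218g4.2, si:ch211-170d8.8 and si:ch211-246m6.5 it was inside the P1 range, at 20.02, 2.38 and 0.71.

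The rows of the table are grouped by chromosome: 99.0% of 13683 adjacent row pairs with a RefSeq chromosome lay on the same one. The order within a chromosome was not checked, and rows without a RefSeq chromosome are not covered. The 4 rows on either side of each gene were read as its neighbours in the table, and their test does not use the rule. Of 96 such rows 62 were tested, and 10 were higher in P2 (16.1%, against 7.57% of all genes) and 2 lower (3.23%, against 7.05%). The 10 lay beside 5 of the 12 genes, and 17 of the 62 had every P2 value above every P1 value, against 11.8% of all genes tested. Within 1 row on each side, 5 of 17 tested were higher (29.4%) and 1 was lower (5.88%). Within 10 rows, 16 of 144 were higher (11.1%) and 12 lower (8.33%), with a median log2 fold change of 0.11, against 0.36 within 4 rows. The 10 calls within 4 rows numbered 5 without P2 replicate 4 and 6 without P2 replicate 1. The titles of the P2 and P1 libraries numbered 1, and of those numbered 2, share a code, and no label says what it marks. With the replicate number as a block, limma called 0 of the 62 rows in either direction, so every neighbour call given here is lost. At an unadjusted p under 0.05, 8 were higher and 3 lower. The block compares only the libraries numbered 1 and 2 and leaves little to estimate the spread. Over all genes it called 444, against 2700 without it. The loss therefore cannot tell an absent difference from a weak test. Whether neighbouring models overlap, or share reads, is not stated in the sources used here.

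Around CR847844.1 the run was unbroken over 5 consecutive rows, of which the other 4 were each tested on their own. The row before the previous one, zmp:0000000924, had 25.8, 20.4 and 58.3 normalized counts in P2, against 1.51, 2.97, 1.77, 5.64 and 1.30 in P1 (log2 fold change 3.27, SE 0.53, limma adjusted p = 0.00220). The preceding row zmp:0000000937 had 60.1, 8.26 and 74.6 in P2, against 5.44, 2.78, 4.87, 6.44 and 3.90 in P1 (log2 fold change 2.66, limma adjusted p = 0.0173). The following row zmp:0000001103 had 24.4, 17.9 and 59.7 in P2, against 3.93, 4.26, 1.99, 2.42 and 5.202 in P1 (log2 fold change 2.81, limma adjusted p = 0.00395). CR847844.2, the row after that, had 38.3, 22.0 and 63.2 in P2, against 7.86, 6.30, 5.75, 5.91 and 8.78 in P1 (log2 fold change 2.31, limma adjusted p = 0.00493). All 5 rows, CR847844.1 included, were highest in P2 replicate 4. The 4 neighbours were lowest in P2 replicate 2, and CR847844.1 in replicate 1. The call on zmp:0000000937 was lost when P2 replicate 1 or 4 was left out (adjusted p up to 0.0940), and the other 3 calls were kept without each single library.

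Beside CABZ01067980.1, both following rows were higher in P2. CABZ01067979.1 had 54.6, 14.9 and 70.0 normalized counts in P2, against 5.44, 6.86, 4.65, 3.76 and 5.85 in P1 (log2 fold change 2.67, limma adjusted p = 0.00580). The next row is tiam2b, a zebrafish homolog of a guanine nucleotide exchange factor for the GTPase Rac. It had 77.0, 18.4 and 70.8 in P2, against 3.63, 8.71, 5.53, 2.68 and 4.88 in P1 (log2 fold change 3.05, limma adjusted p = 0.00350), and it met both limits itself. P2 replicate 2 was the lowest P2 library in all 3 of these rows.

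The row before CR848833.1 is dlc1, which encodes a GTPase-activating protein that is a tumor suppressor in mammals. It had 217, 140 and 295 normalized counts in P2, against 68.0, 90.1, 47.6, 27.6 and 58.2 in P1 (log2 fold change 1.92, limma adjusted p = 0.00786). Without P2 replicate 4 the adjusted p was 0.0503. The row before CABZ01043953.1, CABZ01066312.1, had 0, 0 and 2.05 normalized counts in P2, against 6.04, 2.78, 8.19, 11.5 and 6.50 in P1. It was lower in P2 (log2 fold change -2.36, limma adjusted p = 0.0198), but edgeR did not call it. The limma call was lost without P2 replicate 1 or P1 replicate 5 (adjusted p up to 0.0874). The gene recql5, beside si:ch211-110e21.3, the gene nup50, near CABZ01043953.1, and the lower sulf2b, near si:ch211-218g4.2, were close to the threshold (limma adjusted p = 0.0443, 0.0449 and 0.0462). Leaving out single libraries ended these 3 calls in 8, 6 and 6 of 8 cases, with adjusted p up to 0.161, 0.155 and 0.209.

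**Figure D4:**
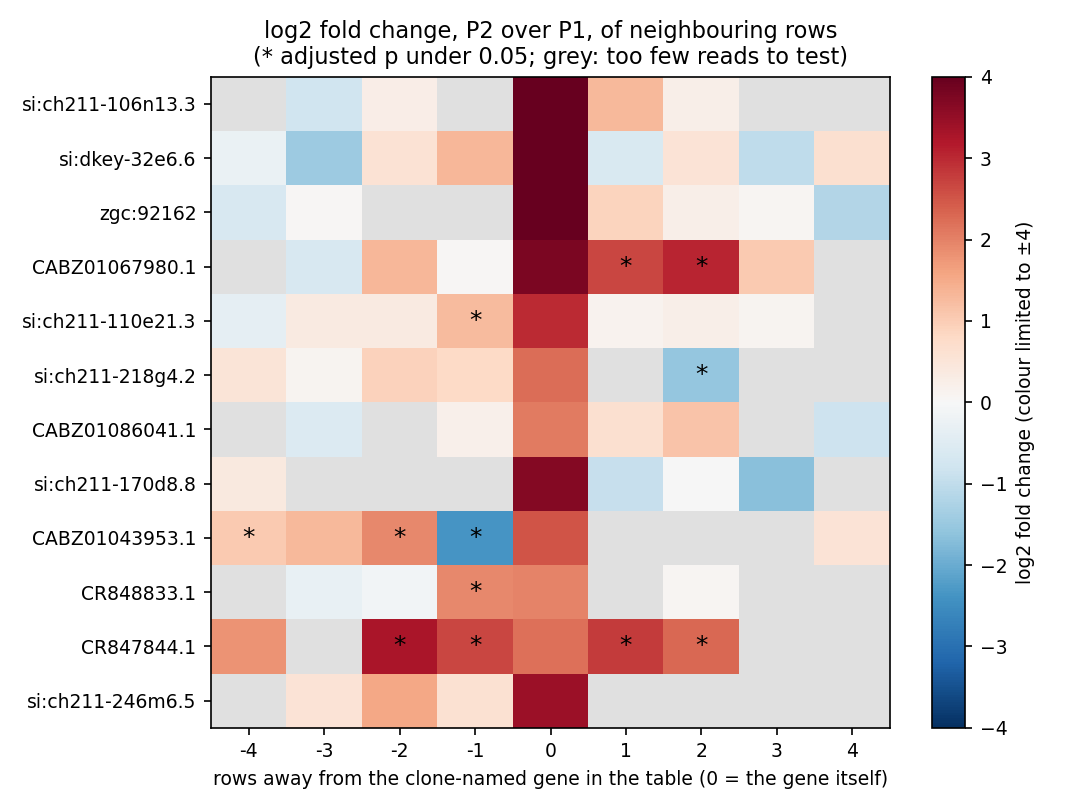
Fitted log2 fold change (P2 over P1, colour, limited to ±4) of the rows up to 4 places before and after each of the 12 genes, which sit at position 0. Asterisks mark neighbours with a limma adjusted p under 0.05 and grey marks rows with too few reads to be tested. The block around CR847844.1 and the pair after CABZ01067980.1 are red throughout. No neighbour of the 3 most separated genes is marked, among only 18 tested.

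Of 18 tested rows within 4 places of si:ch211-106n13.3, si:dkey-32e6.6 or zgc:92162, the 3 most separated genes, 0 were called by limma or edgeR and 1 was called higher by DESeq2. Over all genes tested limma called 7.57% higher and 7.05% lower, and 18 rows are too few to tell 0 from these shares. At an unadjusted p under 0.05 (limma) 3 of the 18 were higher and 1 was lower. Rows that share the clone prefix of a gene were found for 5 of the 12, and of 6 such rows 1, CR847844.2, was higher in limma, edgeR and DESeq2 and 0 were lower (limma, 1 at an unadjusted p under 0.05).

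Of the 12 genes, 7 were matched by identifier in the gene name table, and all 7 had a protein-coding entry in RefSeq under their symbol, though that of si:ch211-246m6.5 could belong to either row of this symbol. CABZ01067980.1, CABZ01086041.1, CABZ01043953.1, CR848833.1 and CR847844.1 were not matched. For the 7 only zgc:92162 (pla2g10) and si:ch211-218g4.2 (arhgap46b) carried a symbol that names a protein family.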

How the data were processed

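RNA of FACS-sorted cells was amplified by SMART-Seq2 and sequenced. The authors mapped the reads to GRCz11 with an nf-core pipeline and deposited normalized read counts, a signal made by dividing the count of each gene by 1 size factor per library, as DESeq2 does. All values (100%) were whole multiples of 1 read within 0.1 read, so reads were recovered. One read was worth 0.185 to 0.339 normalized counts. Values were identical in both deposited tables, and 10 columns that match no sample were not used. The paper describes 10 whole-larva samples, whose spread was not examined here. Fold changes and p-values from the authors' own comparisons were not used. The whole-larva column is a mean made by the authors.

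Genes with at least 10 reads in at least 3 libraries were tested with limma 3.58.1 (R 4.3.3) on log2(value + 1) with a variance trend. edgeR 4.0.16 and DESeq2 1.42.0 on recovered reads called 1982 and 3685 genes. The 12 genes, the rule, and the lists were chosen with earlier results of these data known. All 12 are given in full, with the 3 genes just inside and outside each limit, sp7 and col10a1a, and neighbours that passed the test, of which 1 is not reported here. The neighbour windows, col10a1a and the neighbours other than tiam2b were chosen after their values were seen. Reads were amplified without molecular identifiers, so a floor of 3 reads (0.556 to 1.02 normalized counts) covers counting error only. Sequences and coordinates were not used here, because the gene tables are of another build (GRCz12tu), and 89.8% of all identifiers matched the gene name table.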

Additional observations from a re-analysis of the deposited data

Results flagged for a closer look

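Among the 12 genes, 1 of 12 groups of P1 libraries held a value far from the others by Dixon's criterion for 5 libraries. The value of si:ch211-106n13.3 in P1 replicate 1 was 89.4 normalized counts and the next highest P1 value was 29.6, a gap of 0.777 of the whole P1 range against a critical value of 0.71. Chance alone marks about 1 in 20 groups of normally distributed values in this way. The criterion was applied to normalized counts without a log, so this rate may not hold here. It was not applied on the log scale used for limma, and the cause was not tested.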

How the results depend on the processing

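The number of genes depended on the limits, on P2 replicate 2 and on P1 replicate 2. It was 23 with a minimum P2 mean of 20, 7 with 100, 21 with a ratio of 1.5 and 5 with a ratio of 3. Leaving out 1 library gave 12 to 35 genes. The 35 came without P2 replicate 2, of which 11 were among the 12, and 21 came without P1 replicate 2. Without P2 replicate 1 si:ch211-246m6.5 dropped out, without P2 replicate 2 si:ch211-170d8.8 did, and without P2 replicate 4 CABZ01043953.1 did. Under median-of-ratios, TMM and plain library size scaling 11, 11 and 10 of the 12 remained, each without CABZ01043953.1. Genes with other names were not counted under these settings, and the cause of these differences was not tested.

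The count of 2700 genes called ranged from 876 to 3992 when 1 library was left out. It fell to 876 without P2 replicate 1, 1115 without P2 replicate 4, 1457 without P1 replicate 5 and 1682 without P1 replicate 3. It rose to 3992 without P2 replicate 2, the P2 library nearest to P1 along component 1. Median-of-ratios and TMM scaling moved the median of all genes to -0.14 and -0.11, with 38.4% and 40.0% of calls higher, against 51.8%. The share was 42.0% with DESeq2. The 10 higher neighbours became 5 with a window of 1 row and 16 with 10 rows, and 5 to 12 when 1 library was left out (6 without P2 replicate 1 and 5 without P2 replicate 4).

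Replicate numbers 1 and 2 occur in both populations, and the titles of same-numbered libraries share a code, but no label says that it marks a shared sort. Same-numbered libraries correlated at 0.001 and -0.127 in their deviations from the population means, and the other pairs at -0.259 to 0.21. With so few libraries per population, these values cannot decide whether the libraries were paired. With the replicate number as a block, limma called 444 genes (114 higher) and 0 of the 62 tested neighbours higher, with 8 of these higher at an unadjusted p under 0.05. Without the block edgeR and DESeq2 called 8 and 11 neighbours higher. This block takes the difference between P2 and P1 from the libraries numbered 1 and 2 alone, and the other libraries add nothing to it. On that basis the log2 fold changes of si:ch211-106n13.3, CABZ01067980.1, si:ch211-110e21.3, CABZ01043953.1 and CR847844.1 were 4.63, 2.76, 1.85, 1.47 and 1.85. Without the block they were 5.60, 3.77, 2.98, 2.51 and 2.22. Those of si:dkey-32e6.6, zgc:92162, si:ch211-170d8.8 and si:ch211-246m6.5 were higher with it, at 8.32, 5.86, 3.85 and 3.69, against 7.65, 5.62, 3.67 and 3.41. The rest were lower with it. The median over the 12 genes was 2.43 with the block and 3.20 without it. The block leaves few libraries to estimate the spread.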
